A study of Homo sapiens with 13 samples.

Results

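The genes of the polypyrimidine tract binding protein (PTB) family and of the partners with which PTBP1 regulates splicing were examined for the places where PTBP1 and RUNX1 lie on chromatin. The 6 genes are PTBP1, PTBP2, PTBP3, MATR3, RAVER1 and RAVER2, taken by name from the 20033 protein-coding genes of GENCODE version 44, where MATR3 has 2 overlapping records, so that 7 records were followed. Peaks were taken in each gene and up to 10 kb either side, which gave 12 of the 9370 peaks of the PTBP1 list and 5 of the 7688 peaks of the RUNX1 list. The study profiled MOLM-13, an established line of human acute myeloid leukemia cells, by CUT&Tag and CUT&RUN in 13 libraries with antibodies to PTBP1, RUNX1 and H3K27me3 and with IgG. In CUT&Tag an antibody directs a transposase to the chromatin around its target, and in CUT&RUN it directs a nuclease. PTBP1 and RUNX1 were each profiled in 2 biological replicates per assay in this 1 line, whereas the values below come from 1 deposited peak list per target, taken as the CUT&Tag lists. Neither list names a replicate, so the spread between replicates is unknown and differences between peaks carry no test.

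PTB proteins bind pyrimidine-rich RNA through their RNA recognition motifs and mostly repress the use of nearby exons. PTBP1 is the form found in most dividing cells, PTBP2 is the form of neurons, and PTBP3 is best known from blood cells. The family regulates itself through an exon whose skipping shifts the reading frame, so that the messenger RNA is degraded, and PTBP1 causes this skipping in its own transcript and in that of PTBP2. Matrin 3 (MATR3), a nuclear matrix protein, and the ribonucleoproteins RAVER1 and RAVER2 carry short peptide motifs that dock on PTBP1, and RAVER1 is a corepressor of PTBP1 on several exons. RUNX1 binds DNA and regulates transcription in blood cells. The peaks here are positions on DNA and hold no measure of RNA bound or spliced.

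The 100 bases of hg38 directly upstream of the annotated start are shown for 5 of the genes, so that starts with and without a peak can be compared, each read 5′ to 3′ on the strand of its gene. They are chr19:796975-797074 (plus strand) for PTBP1, chr1:96721565-96721664 (plus) for PTBP2, chr5:139273652-139273751 and chr5:139293574-139293673 (plus) for the upstream and downstream starts of MATR3, chr19:10333530-10333629 (minus) for RAVER1 and chr1:64744975-64745074 (plus) for RAVER2. Capitals mark matches, on either strand, to the GC box GGGCGG, to CCAAT or to AAGATGGCG, the core of the site of the factor YY1.
PTBP1: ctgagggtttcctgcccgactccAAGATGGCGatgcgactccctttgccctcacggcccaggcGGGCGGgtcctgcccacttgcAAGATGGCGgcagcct
PTBP2: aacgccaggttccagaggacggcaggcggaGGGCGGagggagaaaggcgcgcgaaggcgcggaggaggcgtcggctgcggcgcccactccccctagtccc
MATR3, upstream start: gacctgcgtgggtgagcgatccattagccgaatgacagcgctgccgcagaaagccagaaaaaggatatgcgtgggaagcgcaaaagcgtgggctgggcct
MATR3, downstream start: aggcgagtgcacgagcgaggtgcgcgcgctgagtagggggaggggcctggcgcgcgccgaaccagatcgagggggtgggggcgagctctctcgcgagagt
RAVER1: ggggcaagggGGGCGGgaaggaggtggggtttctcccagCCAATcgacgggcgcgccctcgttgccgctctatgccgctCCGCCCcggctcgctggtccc
RAVER2: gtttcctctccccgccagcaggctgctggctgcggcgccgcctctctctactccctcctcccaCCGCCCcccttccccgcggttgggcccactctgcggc
The GC box, the site of Sp1 family factors, occurred in all of these windows but those of MATR3, and 37.6% of all protein-coding genes held it in the same window. Of these windows that of RAVER1 alone had CCAAT, which 19.8% of all genes held. The PTBP1 window held AAGATGGCG at 2 places, a match found at least once in 60 genes and at least 2 times in 3 genes of all 20033. This motif was looked for after the sequence had been read. The windows end at the annotated gene starts. The canonical transcripts of PTBP1 and of the upstream MATR3 record begin farther downstream, at 797452 and 139274104. No match to the RUNX site (TGTGGT or TGCGGT, 6.70% of all genes) or to the ETS site CCGGAAG (6.15%) was in any of the 6 windows. A match is a match of letters only, and its absence says nothing of binding. PTBP2 and RAVER2, the genes without a peak, held a GC box as did PTBP1 and RAVER1, which had peaks of both lists. The number of matches was 1 each at PTBP1, PTBP2 and RAVER2 and 2 at RAVER1. PTBP3, which also had both peaks and whose window is not printed, held 3.

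Members differed first in whether a peak lay at the start of the gene. A peak counted as lying at a start when it came within 1000 bases of the 5′ end of the annotated gene. PTBP1, PTBP3 and RAVER1 had a PTBP1 peak there, 3 of 6 genes, where 26.4% of all protein-coding genes did. The same 3 genes and MATR3 had a RUNX1 peak at the start, 4 of 6, beside 21.3% of all genes. Both peaks lay at 3 of 6 starts, beside 17.3% of all genes, and MATR3 was the 1 gene with a RUNX1 peak and no PTBP1 peak at any of its starts, a class that holds 3.98% of genes. Over the gene and 10 kb either side, 4 of 6 genes had a PTBP1 peak (39.4% of all genes) and 4 had a RUNX1 peak (36.8%). The PTBP1 peak counted for MATR3 reached the 10 kb flank only with its edge, and its summit lay beyond it. Without that peak the count was 3 of 6. PTBP2 and RAVER2 had no peak of either list, as did 53.3% of all genes. With 6 genes these shares are coarse, and they describe the group without setting it apart from other genes.

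**Figure D1:**
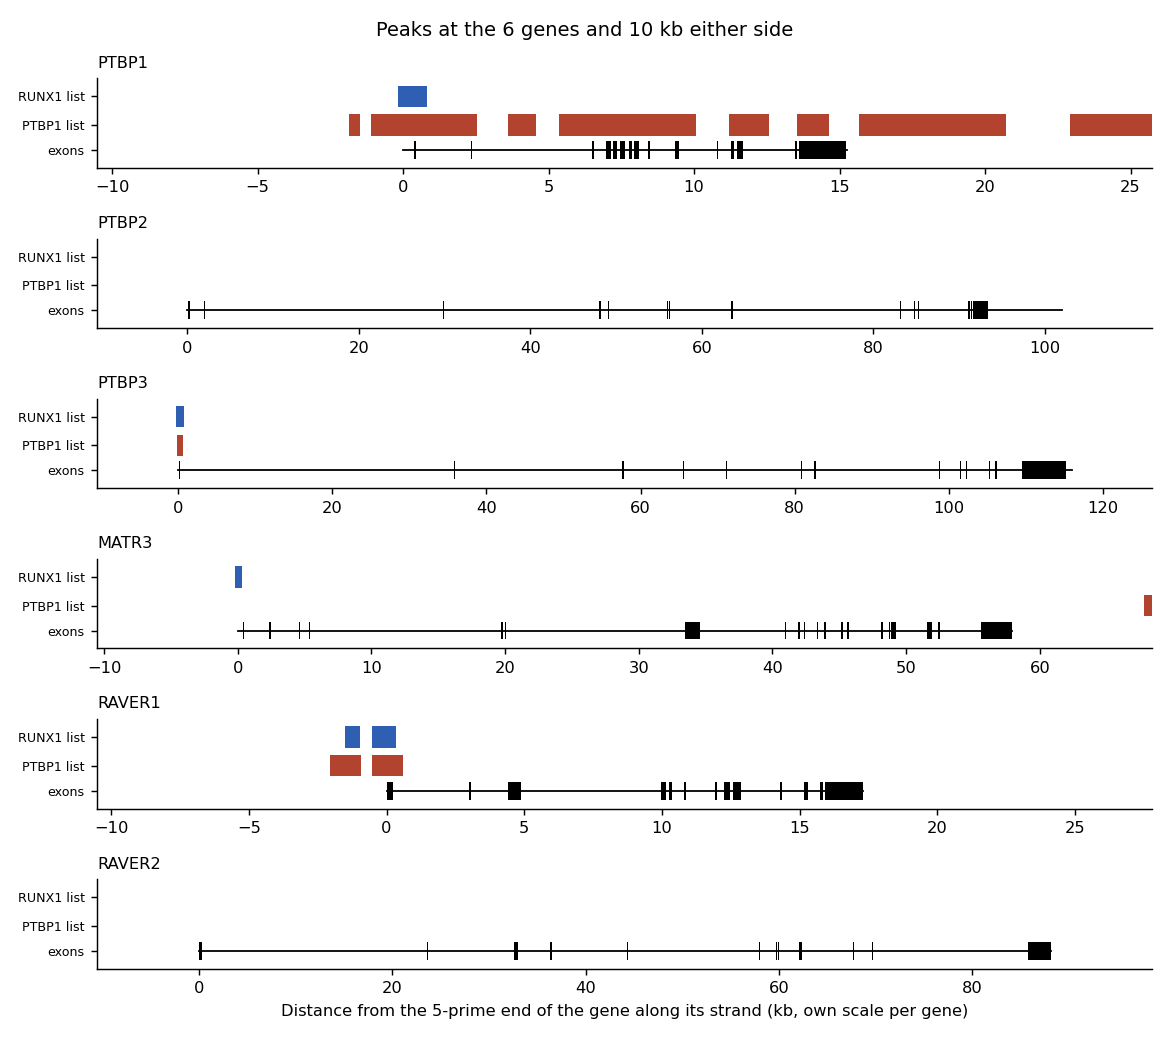
Peaks of the PTBP1 list (red) and the RUNX1 list (blue) at the 6 genes, with exons of the canonical transcript in black (for MATR3, of both records), along the distance from the 5′ end of the gene in kb on a scale of its own for each gene. PTBP1 holds 8 of the 12 PTBP1 peaks, the peaks of PTBP3 and RAVER1 sit at their starts, and PTBP2 and RAVER2 are empty.

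Strength is given as fold enrichment as the peak caller reports it. This is the fragment pileup at the summit of the peak against the local background, with the same constant added to both. Strength is also given as the whole number of fragments at the summit that this value implies. The usual background was 0.72 fragments for PTBP1 peaks and 0.33 for RUNX1 peaks, and no peak of the 6 genes lay on a raised one. Fold enrichments were therefore ranked within each list and not compared between lists. The PTBP1 list had a median fold enrichment of 12.2 with 21 fragments at the summit, and the RUNX1 list a median of 15.0 with 20 fragments.

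The gene of PTBP1 itself held most of the peaks of the group. It lies on the plus strand at chr19:797075-812327, spans 15253 bases and has 15 exons in its canonical transcript, which begins at 797452. It had 8 PTBP1 peaks and 1 RUNX1 peak. At least 8 PTBP1 peaks were found at 1.02% of all protein-coding genes, 144 genes had more, the highest number was 33, and the median gene had 0. Of the 6523 genes at most 2 times longer or shorter than PTBP1, 95 had at least 8.

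From upstream to downstream, the 8 peaks began with a weak one at chr19:795225-795610, with a fold enrichment of 11.0 and 18 fragments at the summit, whose summit lay 1751 bases before the gene start. The next, at chr19:795961-799600, covered the start, exons 1 and 2 and the intron between them, and reached 110 with 189 fragments. In intron 2 another peak at chr19:800685-801653 had a fold enrichment of 20.3 with 34 fragments. These first peaks show a strong start with much weaker peaks on either side of it.

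Exons 3 to 10 lay under a single peak 4734 bases wide, at chr19:802426-807159, which had its summit in intron 9, a fold enrichment of 16.9 and 28 fragments, and which also reached the start of the microRNA gene MIR4745. A peak at chr19:808289-809646 took in exons 12 and 13, with its summit in intron 13, a fold enrichment of 11.0 and 18 fragments. The last peak to touch the gene, at chr19:810607-811710, had its summit in intron 14 and the lowest value of the 8, a fold enrichment of 9.30 with 15 fragments. Each of the 4 peaks in the body of the gene was wider than the median of the list, 652 bases, and none passed a fold enrichment of 20.3.

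Beyond the 3′ end, the widest peak of the group, 5050 bases at chr19:812751-817800, had a fold enrichment of 27.3 and 46 fragments, with its summit in coding exon 8 of the neighbour PLPPR3, a phospholipid phosphatase-related gene on the minus strand, and the microRNA gene MIR3187 within reach. The eighth, 3199 bases at chr19:819991-823189, lay at the start of PLPPR3 with a fold enrichment of 17.4 and 29 fragments. In width the 4 broadest of these peaks ranked 74, 87, 171 and 223 in the list of 9370. Of the 8 peaks, 5 touched the gene, and 4 of those 5 had an intronic summit.

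**Figure D2:**
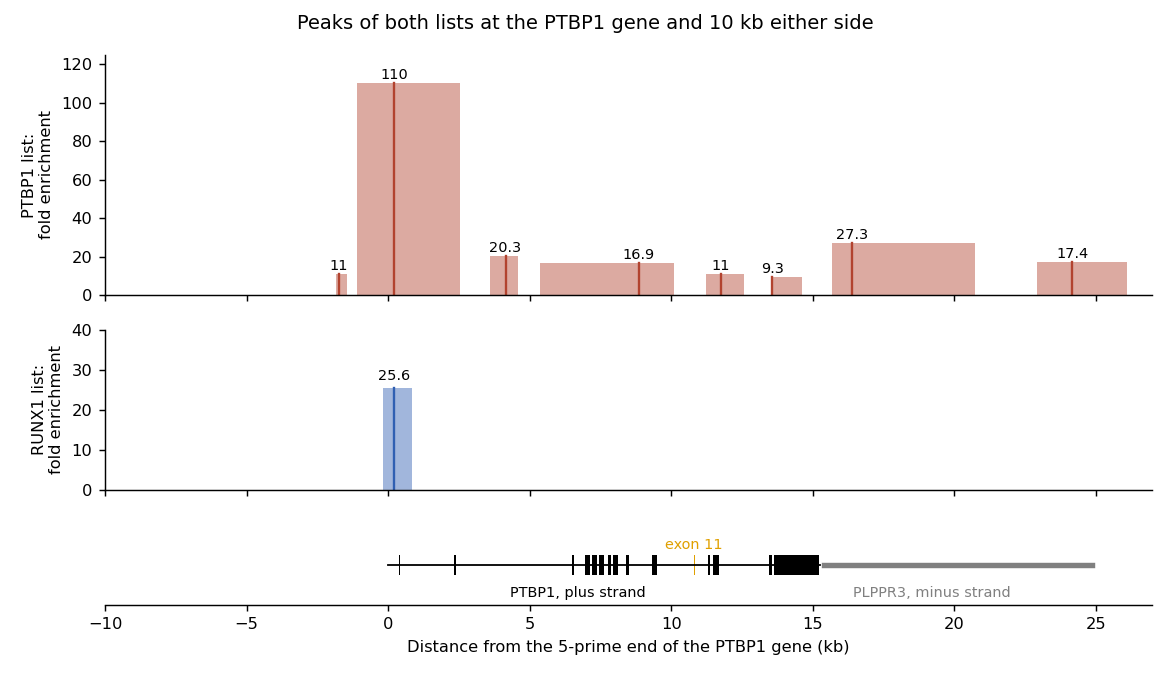
Fold enrichment (vertical axes, a separate scale for each list) of every peak in the PTBP1 gene and 10 kb either side, against distance from the 5′ end of the gene in kb. Shaded blocks span each peak and lines mark summits. The PTBP1 list reaches 110 at the start and 9.30 to 27.3 elsewhere, the RUNX1 list has a single peak of 25.6, and exon 11 (yellow) is the 1 exon with no PTBP1 peak over it.

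PTBP1 peaks covered 10691 bases of the PTBP1 gene, or 70.1% of its length, and RUNX1 peaks 841 bases, or 5.51%. A larger share was covered by PTBP1 peaks at 105 of the 20033 genes. Among the 6523 genes of similar length, 16 had a larger share, 48 were covered over more than 50% of their length, and the median was 0. The cover at PTBP1 was therefore among the most extensive in the list. Counted by exon, 14 of the 15 exons (93.3%) lay at least in part under a PTBP1 peak. For comparison, 3724 genes have at least 10 exons and a PTBP1 peak in the gene or 10 kb either side. Their median share was 5.26%, and 12 genes had a larger one. Genes with a peak only in the flanks are among them and lower this median. Exon 14 was covered over 17.9% and exon 15, which holds the 3′ end of the transcript, over 62.8% of its bases, while 12 exons lay wholly inside a peak. RUNX1 covered 1 of the 15 exons, exon 1.

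The exon without a peak was exon 11, at chr19:807869-807902. This is the 34-base exon through which PTBP1 limits its own messenger RNA. It lay in a gap of 1129 bases between peaks, 709 bases from the peak to its left and 386 bases from the peak to its right. The exon was singled out after its values had been seen, and a gap in a list of called peaks is a stretch under the threshold of the caller and not a measured absence. The matching exons of the paralogues, exon 10 of PTBP2 at chr1:96806419-96806452 and exon 10 of PTBP3 at chr9:112231380-112231413, are also 34 bases long and were not under a peak of either list. The exons are shown on the strand of each gene.
PTBP1, exon 11: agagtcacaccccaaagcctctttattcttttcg
PTBP2, exon 10: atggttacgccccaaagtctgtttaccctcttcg
PTBP3, exon 10: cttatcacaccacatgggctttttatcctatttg
Aligned without gaps, the PTBP1 exon shared 25 of 34 bases (73.5%) with that of PTBP2 and 22 (64.7%) with that of PTBP3, and the PTBP2 and PTBP3 exons shared 21 (61.8%).

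The intron just before this exon holds PTB binding sites in the transcripts of PTBP1 and PTBP2, and its last 100 bases are shown for the 3 genes, at chr19:807769-807868 (plus strand), chr1:96806319-96806418 (plus) and chr9:112231414-112231513 (minus). Capitals mark runs of at least 12 pyrimidines.
PTBP1, before exon 11: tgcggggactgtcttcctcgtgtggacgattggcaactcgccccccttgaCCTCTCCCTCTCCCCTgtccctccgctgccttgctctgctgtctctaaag
PTBP2, before exon 10: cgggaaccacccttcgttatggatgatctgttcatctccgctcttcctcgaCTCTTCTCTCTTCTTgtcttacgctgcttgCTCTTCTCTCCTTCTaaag
PTBP3, before exon 10: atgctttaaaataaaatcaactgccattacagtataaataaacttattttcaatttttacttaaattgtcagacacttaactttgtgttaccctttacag
The PTBP1 sequence was 69% pyrimidine with 1 run of 16, the PTBP2 sequence was 73% pyrimidine with 2 runs of 15, and the PTBP3 sequence was 56% pyrimidine with no run. None of the 3 stretches lay under a peak of either list.

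The RUNX1 peak at the PTBP1 gene, at chr19:796909-797915, was 1007 bases wide, with a fold enrichment of 25.6, 33 fragments and rank 1547 of 7688. It overlapped the strong PTBP1 peak, and the summits of both lay 1 base apart, at 797299 for PTBP1 and 797300 for RUNX1. They lay inside the annotated gene, 224 and 225 bases downstream of its start, and 153 and 152 bases upstream of the canonical transcript start. Among the 4610 PTBP1 peaks that overlap a RUNX1 peak the median distance between summits was 81 bases (quartiles 24 and 181), and 399 had summits at most 1 base apart. The 29 bases at chr19:797285-797313 (plus strand), centred on the PTBP1 summit, were ccccgggcggccttctggccagtgggagg and hold a GC box. The other 7 PTBP1 peaks at the gene did not overlap a RUNX1 peak, so the share was 1 of 8 (12.5%), beside 49.2% of the whole PTBP1 list. Of the 204 genes with at least 8 PTBP1 peaks, 69 had at most 1 RUNX1 peak, and the median over the 204 was 2.

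At the start, a fold enrichment of 110 placed PTBP1 high in its list, with rank 66 of 9370 peaks, and of the 5281 genes with a PTBP1 peak at the start 61 (1.16%) had a higher value. In the RUNX1 list 22.0% of the 4266 genes with a start peak were higher than PTBP1. PTBP3 and RAVER1 were closer to the middle of the PTBP1 list, with 24.0% and 34.5% of genes higher. In the RUNX1 list the order differed, with PTBP3 first of the group (11.9% of genes higher), then PTBP1, RAVER1 (54.9%) and MATR3 (81.8%). The median start value was 15.7 for PTBP1 and 15.8 for RUNX1.

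**Figure D3:**
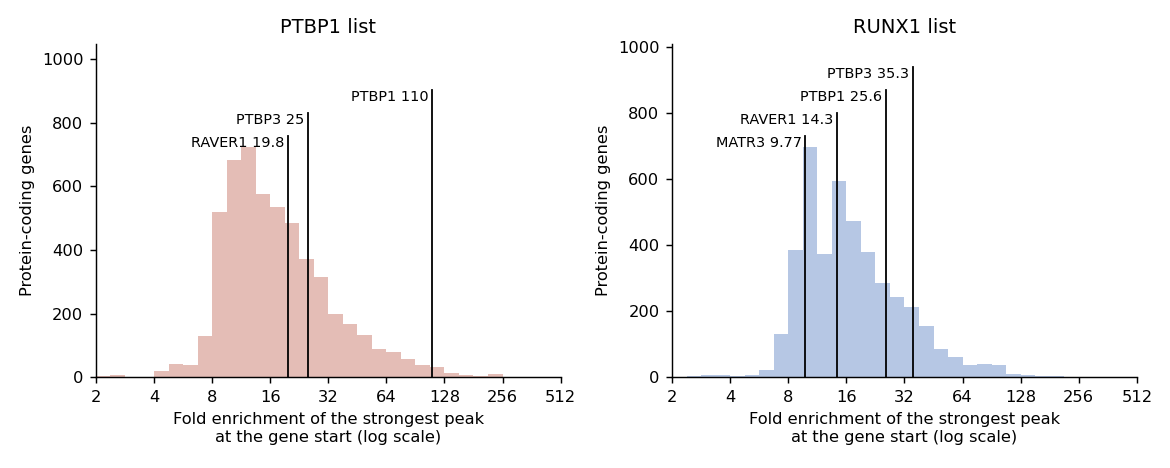
Number of protein-coding genes by the fold enrichment (log scale) of the strongest peak at the gene start, in the PTBP1 list (left, 5281 genes) and the RUNX1 list (right, 4266 genes), with lines at the members that have such a peak. PTBP1 lies in the upper tail of its own list at 110, and the RUNX1 values of the members run from 9.77 at MATR3 to 35.3 at PTBP3.

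The surroundings of the PTBP1 gene were rich in peaks as well. Within 100 kb of it lay 28 PTBP1 and 10 RUNX1 peaks for 10 protein-coding genes, PTBP1 included, or 2.80 and 1.00 per gene, and the first 2 Mb of chromosome 19 held 198 and 54 peaks for 71 genes, or 2.79 and 0.761 per gene. Over the whole genome the numbers were 0.468 and 0.384 per gene. The serine protease genes of neutrophil granules lie in this stretch, with AZU1 at 6 PTBP1 and 4 RUNX1 peaks, PRTN3 at 7 and 3, and ELANE at 6 and 3. CFD, which encodes complement factor D, had 9 PTBP1 and 4 RUNX1 peaks and a start value of 137 in the PTBP1 list, above that of PTBP1. MED16, a Mediator subunit, had 9 and 3 peaks, and PLPPR3 had 8 and 3. PALM, R3HDM4 and MISP, at the edges of the stretch, had 3, 3 and 1 PTBP1 peaks. The number at the PTBP1 gene was thus within the range of its neighbours, and some peaks are counted for more than 1 of these genes because the 10 kb flanks overlap. How far the density of the locus enters the number at PTBP1 was not tested.

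PTBP3 (chr9:112217716-112333664, minus strand, 115949 bases) had 1 peak of each list, both at its start. The PTBP1 peak at chr9:112333048-112333890 had a fold enrichment of 25.0, 42 fragments and rank 1354 of 9370, and its summit lay in the 5′ UTR in exon 1, 12 bases into the canonical transcript. The RUNX1 peak at chr9:112332980-112334000 had a fold enrichment of 35.3, 46 fragments and rank 851 of 7688, the highest RUNX1 value of the group. The summits were 23 bases apart. The rest of the gene was empty, so that 1 of 14 exons lay under a PTBP1 peak and peaks covered 0.532% of its length, against 70.1% at PTBP1.

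PTBP2 (chr1:96721665-96823738, plus strand, 102074 bases) had no peak in either list, nor had its 14 exons. From its start the nearest PTBP1 peak was 1487 kb away, and 5.95% of protein-coding genes lay farther from one. The nearest RUNX1 peak was 359 kb away, with 18.5% of genes farther. The median gene lay 63.7 kb from a PTBP1 peak and 63.3 kb from a RUNX1 peak, so PTBP2 sat in a stretch poor in peaks of both lists. The 500 bases either side of its start had a GC content of 63.0% and a CpG ratio (observed over expected) of 0.805, close to the medians of 63.7% and 0.791 for genes with a PTBP1 peak at the start and above those of 56.5% and 0.579 for genes with no peak there.

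RAVER1 (chr19:10316212-10333529, minus strand, 17318 bases) had a pair of peaks in each list, all at its 5′ end. The peaks over the start were a PTBP1 peak at chr19:10332914-10334075, with a fold enrichment of 19.8 and 33 fragments, and a RUNX1 peak at chr19:10333199-10334067, with 14.3 and 18 fragments. Their summits lay 30 and 126 bases upstream of the start, 96 bases apart. Both of these summits also lay in exon 1 of a long noncoding RNA gene (ENSG00000274425). The peaks farther upstream were a PTBP1 peak at chr19:10334471-10335585, with a fold enrichment of 16.3 and 27 fragments, and a RUNX1 peak at chr19:10334491-10335028, with 13.5 and 17 fragments. They came to 942 and 962 bases of the start, which counts as the start under the 1000-base rule. Their summits, 75 bases apart, lay 1492 and 1417 bases upstream. These summits were in the same noncoding exon and also in intron 4 of ICAM3, an adhesion molecule of leukocytes. At RAVER1, as at PTBP3, each peak of one list thus had a peak of the other list over it. The start of RAVER1 is also within 1000 bases of the start of the noncoding gene, which is read from the other strand.

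The PTBP1 summit at the RAVER1 start falls within the window printed above, and the 29 bases around it (chr19:10333545-10333573, minus strand) were cctcgttgccgctctatgccgctccgccc. The 101 bases around the RUNX1 summit of the same start (chr19:10333605-10333705, minus strand), shown because they hold no RUNX site although a RUNX1 peak is centred there, were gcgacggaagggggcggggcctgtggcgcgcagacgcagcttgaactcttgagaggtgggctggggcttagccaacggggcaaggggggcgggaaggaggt. Neither list had a peak over the rest of the gene, and 1 of its 13 exons lay under a peak.

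MATR3 (chromosome 5, plus strand) differed from PTBP1, PTBP3 and RAVER1 in having a RUNX1 peak only at its start. The longer record begins at 139273752 and the shorter at 139293674, and both end near 139331677. The RUNX1 peak at chr5:139273510-139274037 covered the upstream start with a fold enrichment of 9.77, 12 fragments and rank 6095 of 7688, the weakest RUNX1 peak of the group, with a −log10 q of 13.2 where the list begins at 7.24. It also lay at the start of SNHG4, a small nucleolar RNA host gene. The peak ended before the canonical transcript of the longer MATR3 record begins, at 139274104, and no exon of that transcript lay under it. The 29 bases around its summit (chr5:139273872-139273900, plus strand) were ctatgcgccccttctacccttaagagatg.

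No peak of either list lay at the downstream start of MATR3, which had a PTBP1 peak no nearer than 47.8 kb and a RUNX1 peak no nearer than 19.6 kb. The 1 PTBP1 peak within 10 kb of MATR3, at chr5:139341514-139342274 with a fold enrichment of 15.1 and 25 fragments, lay downstream, at the start of PAIP2, which encodes an inhibitor of translation. It had no RUNX1 peak over it. The starts of MATR3 differed in sequence, with a CpG ratio of 0.565 and a GC content of 58.9% at the upstream start, which had the RUNX1 peak, and 0.964 and 60.6% at the downstream start, which had none. The median over all protein-coding genes was 0.688 and 59.2%.

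RAVER2 (chr1:64745075-64833232, plus strand, 88158 bases, 12 exons) had no peak of either list. From its start the nearest PTBP1 peak was 675 kb away (14.5% of genes farther) and the nearest RUNX1 peak 221 kb (26.5%). The start had a GC content of 76.3%, the highest of the group, and a CpG ratio of 0.845. The starts with both peaks had values of 67.8% and 0.868 at PTBP1, 74.6% and 0.939 at PTBP3 and 65.1% and 0.903 at RAVER1. GC contents thus overlapped those of PTBP2 and RAVER2, whereas all 3 CpG ratios lay above those of PTBP2 and RAVER2. The downstream start of MATR3, without a peak, had the highest CpG ratio of the group (0.964). The upstream start of MATR3, with a RUNX1 peak, had the lowest (0.565). Of the 7862 genes with a CpG ratio of at least 0.75, 41.8% had a PTBP1 peak at the start, 35.2% a RUNX1 peak and 51.6% neither, and of the 12171 genes below it 16.4% had a PTBP1 peak. A CpG-rich start without a peak was thus common. Whether PTBP2 and RAVER2 are transcribed in MOLM-13 was not analysed here.

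Taken over the group, 4 of 12 PTBP1 peaks (33.3%) overlapped a RUNX1 peak, beside 49.2% in the whole list, and 4 of 5 RUNX1 peaks (80%) overlapped a PTBP1 peak, beside 60.2%. Leaving the PTBP1 gene aside, 3 of the other 4 PTBP1 peaks (75%) overlapped, so the low share came from the extra peaks of that gene. Within 50 bases of the summit, the RUNX site was found at none of the 5 RUNX1 peaks, where 24.2% of all RUNX1 summits had it. It was found at 1 of the 12 PTBP1 peaks, where 8.79% of all PTBP1 summits had it. That match was at the peak over the PLPPR3 start, in the 101 bases at chr19:821199-821299 (plus strand), where capitals mark the site on the opposite strand, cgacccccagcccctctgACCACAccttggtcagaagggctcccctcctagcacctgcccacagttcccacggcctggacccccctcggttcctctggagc. A run of at least 12 pyrimidines on either strand was found at none of the 12 PTBP1 and none of the 5 RUNX1 summits, beside 14.7% and 17.0% of all summits. The strongest of the intronic summits in PTBP1, in intron 2, is shown as an example with neither feature (chr19:801176-801276, plus strand), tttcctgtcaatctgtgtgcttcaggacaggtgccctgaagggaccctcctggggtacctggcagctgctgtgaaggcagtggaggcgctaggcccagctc.

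To set the family among related genes, the starts of the genes of 25 other RNA-binding proteins were examined. The list was drawn up for binders of pyrimidine-rich RNA or the polypyrimidine tract. It also holds proteins with other RNA sites, SF1 among them, so its shares do not describe a single binding class. A PTBP1 peak lay at 18 of the 25 (72%) and a RUNX1 peak at 13 (52%), beside 26.4% and 21.3% of all genes, and the median start value where a PTBP1 peak was present was 19.8, beside 15.7. All 13 genes with a RUNX1 peak also had a PTBP1 peak, as did 81.3% of the 4266 genes with a RUNX1 start peak overall. The highest PTBP1 values were those of HNRNPL, a close relative of the PTB proteins among the hnRNPs (159, with 9.77 in the RUNX1 list), SF1, which recognises the branch point (118, with 33.8), and KHSRP, a splicing and decay factor (103, with 39.8). U2AF2, the subunit of U2AF that competes with PTBP1 for the polypyrimidine tract, had 95.9 and 18.0, with 9 PTBP1 peaks. HNRNPC had 63.4 and 42.1, HNRNPK 34.3 and 20.3, QKI 25.6 and 22.6, TIA1 20.3 and 13.5 and TIAL1 18.6 and 30.1. The lower values were those of PCBP1 (11.6 and 24.8), SFPQ (11.0 and 12.8), HNRNPLL (8.14 and 22.6) and PCBP3 (3.995 and 4.33). A raised local background lowers the fold enrichment, and 455 PTBP1 and 395 RUNX1 peaks of the whole lists lay on one. The background at the listed genes is not given here, so a low value, as at PCBP3, need not mean few fragments. PUF60, FUBP1, RBFOX2, PCBP2 and PCBP4 had a PTBP1 peak alone at the start, and PUF60 had 11 PTBP1 peaks, the most of the list. Neither peak lay at the start of U2AF1, NONO, CELF1, ELAVL1, FUBP3, MBNL1 or SRRM4. PTBP1 peaks were present and strong at some of these regulators and missing at others, as within the PTB group.

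The second list held 12 genes whose transcripts are known splicing targets of PTBP1, PTBP2 among them. A PTBP1 peak lay at the start of 5 (41.7%) and a RUNX1 peak at 3 (25%), beside 26.4% and 21.3% of all genes, and 7 of the 12 had neither, beside 69.7% of all genes. Both peaks lay at USP5, a deubiquitinase (91.3 and 39.8), PKM, the pyruvate kinase with mutually exclusive exons (23.8 and 48.1), and ACTN1, an actinin (19.8 and 27.8). CASP2 (11.6) and DLG4 (8.14) had a PTBP1 peak only, and FAS, FLNA, PTBP2, SRC, TPM1 and TPM2 were among those with neither peak.

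**Figure D4:**
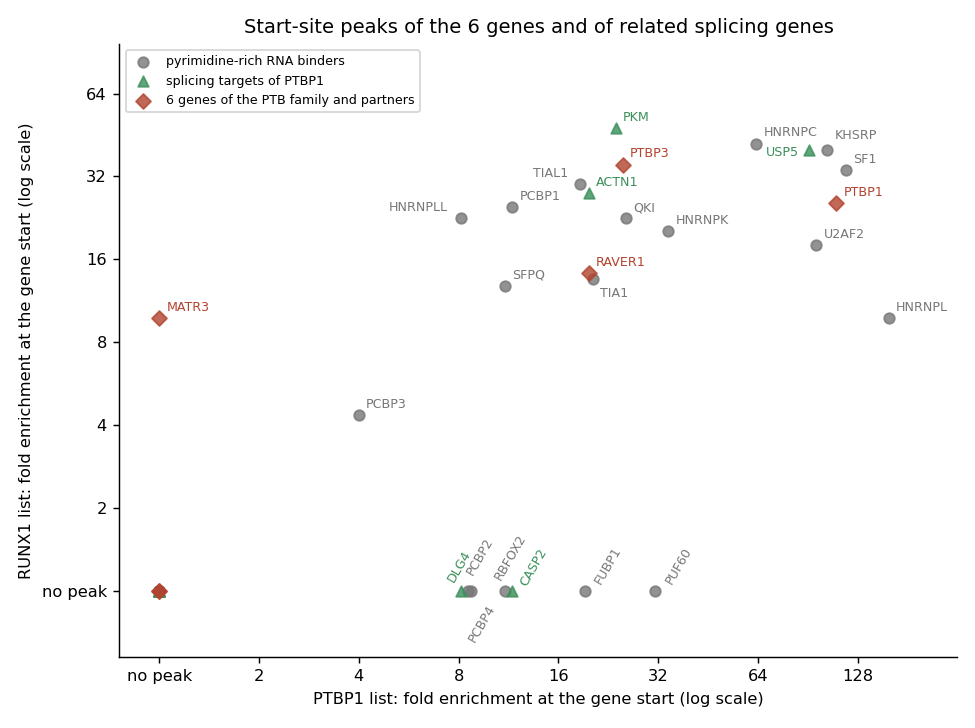
Fold enrichment at the gene start in the PTBP1 list (horizontal, log scale) and in the RUNX1 list (vertical, log scale). Red diamonds are the 6 genes and green triangles the 12 splicing targets of PTBP1. Grey circles are the 25 other RNA-binding proteins, labelled as pyrimidine-rich RNA binders although not all are. Genes that lack a peak are drawn at the "no peak" position. PTBP1 at 110 and 25.6 lies near SF1, KHSRP, USP5 and U2AF2, MATR3 has a RUNX1 value alone, and PTBP2 and RAVER2 sit at the origin with the listed genes that have neither peak.

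By the distance over 4 values (the number of peaks in each list and the highest start value in each list, all as log2), the protein-coding genes most like PTBP1 were SLC25A6, a mitochondrial ADP/ATP carrier, with 9 PTBP1 peaks and 1 RUNX1 peak and start values of 113 and 21.8 (distance 0.277), SEC16A, a protein of endoplasmic reticulum exit sites, with 8 and 1 peaks and 109 and 32.3 (0.339), and U2AF2 with 9 and 1 peaks (0.563). Nearest to PTBP3 were RSU1 and SMAD2, at a distance of 0.0601 each, and LY75 at 0.0913. RAVER1 was nearest to FLYWCH1 (0.0885), PARP6 and ZNF384 (0.143 each), and the upstream record of MATR3 had the same 4 values as EYA3, RNF125 and ZNF638. The downstream record had the same values as 586 other genes, so its likeness carries no information. Of the members with a peak, PTBP1 had the most distant nearest gene.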

How the data were processed

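Reads of the MOLM-13 libraries were aligned by the authors to hg38 with Bowtie2, filtered at a mapping quality above 30 and cleared of duplicates, and peaks were called with MACS3 at a q-value of 1e-07. Whether this was done on pooled replicates is not given in the sources used here. The deposited lists hold, for each peak, the fold enrichment (a ratio of summit pileup to background), the −log10 p-value and −log10 q-value, and a score equal to 10 times the −log10 q-value with its decimals dropped. These values are the authors' own, and none compares samples. Fragment totals are unknown, so depth enters only through the pileup, which was solved from fold enrichment and −log10 p-value together (largest difference 0.00134). At least 11 fragments lay at a summit of the PTBP1 list and 8 at one of the RUNX1 list, so weaker sites are not seen, and a peak that is not listed is not a measured absence.

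Coordinates are 1-based on hg38. Genes, exons and canonical transcripts are those of GENCODE version 44, a gene start is the 5′ end of the annotated gene with 1000 bases either side, and sequences were read from the hg38 genome. Lists overlapped when peaks shared at least 1 base. With 1 list per target no test was made, and counts at the members are set beside the same counts over all protein-coding genes. The 6 genes, both related gene lists and the measures were chosen with earlier results of these data known. Named genes were the members, any gene whose start lay within 1000 bases of their peaks, the 3 genes nearest to each member, and in both lists those with peaks of both targets or the 3 highest PTBP1 values at the start. Other neighbours of PTBP1, genes with only 1 or neither peak, exon 11 and the AAGATGGCG motif were added after their values were seen. Some items are not reported here. The scripts were tested on simulated data. The software was Python 3.11.15, pysam 0.24.0, pandas 2.3.3, numpy 2.4.6 and matplotlib 3.10.9.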

Additional observations from a re-analysis of the deposited data

How the results depend on the processing

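Of 34 alternative settings tried over 8 counts, 30 left the count within 1.5 times the reported one. The number of PTBP1 peaks at the 6 genes fell from 12 to 7 when peaks had to overlap the gene itself, because the other 5 lie in the flanks. PTBP1 peaks that overlap a RUNX1 peak numbered 2 in place of 4 when the shared bases had to make up at least 50% of the PTBP1 peak. When the sequence window reached 100 bases from the summit, 1 RUNX1 summit in place of 0 held a RUNX site and 1 PTBP1 summit in place of 0 held a pyrimidine run. Genes with a RUNX1 peak at the start numbered 3 in place of 4 at a −log10 q of at least 20, the missing one being MATR3, while the count of genes with both peaks was 3 under each of the 5 settings tried. No paired analysis was possible because each target has a single list that names no replicate. Depth limits the lists at their weak end, where the lowest peaks rest on 11 PTBP1 and 8 RUNX1 fragments.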
